A study of Mus musculus with 2 samples.

Results

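The subject is the set of p53 peaks with the highest scores in mouse embryonic stem cells, here called ceiling peaks: those on chromosomes 1 to 19 chosen by a peak caller score of 3100 or more. They numbered 1493 of the 92231 autosomal peaks, or 1.62%, in a list of 92924 peaks in all. They were set beside the 3814 autosomal peaks that scored 1000 to under 3100, here called sub-ceiling peaks. Of these 3814, 2729 scored under 2000, so most lay far below the ceiling. The study sequenced DNA pulled down with a p53 antibody (M-19) and input DNA, 1 library each, both from mouse embryonic stem cells labelled as a C57BL/6X129Sv mix and passaged fewer than 20 times. Both libraries came from cells kept with leukemia inhibitory factor and given Nutlin for 8 hours, at a dose that the labels give as 20 µM in one place and as 20 mM in another. No untreated library and no replicate was analysed here, so no value measures a response to Nutlin or a spread between cultures, and the number of reads behind a peak is unknown.

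The transcription factor p53 binds as a tetramer to paired copies of a short half-site and turns on genes of growth arrest, apoptosis and DNA repair. The ubiquitin ligase Mdm2 keeps p53 scarce, and Nutlin blocks the contact between the proteins, so that p53 accumulates. In ChIP-seq, a region that is pulled down more than input becomes a peak, and MACS, the caller named by the submitters, scores it by −10 × log10 of a p-value against input. Scores in this list start at 50. Peaks are given by position in build mm9, since no annotation or sequence of that build was used, and whether they hold a p53 site was not examined.

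The ceiling peaks were nearly all tied. Of the 1493, 1379 (92.4%) had a score of exactly 3100, and 114 lay above it, with a median of 3166.09 and a maximum of 3233.06. Just inside the threshold stood peaks of 3100.05 at chr5:130915551-130916680, 3102.35 at chr12:85543062-85544513 and 3105.05 at chr10:20020019-20020799. Just outside stood peaks of 3095.75 at chr6:67133249-67134248, 3095.7 at chr13:29135527-29136717 and 3094.43 at chr11:103810316-103811046. Apart from the tied value the counts were even on both sides: 30 peaks scored 3000 to under 3050, 37 scored 3050 to under 3100, 42 scored above 3100 and under 3150, 37 scored 3150 to under 3200, and 35 scored 3200 or more.

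The maximum of the list equals the limit of computer arithmetic. The smallest positive number that double-precision arithmetic can hold, taken as a p-value, gives a score of 3233.06, and 3 autosomal peaks had exactly that score. All 29 scores of 3213.06 or more equalled, within 0.006, the score of a whole-number multiple (1 to 100) of that smallest number. Every p-value that such arithmetic holds in that range is a multiple of this kind, so the match follows wherever a score is computed from one. It covers 29 of the 114 peaks above 3100 and says nothing on the 1379 tied peaks. A score above 3076.53 that is computed from a p-value belongs to a number that this arithmetic stores with reduced precision. The sources used here do not say whether the value 3100 was computed in this way or was written in place of p-values too small to be held. In the second case the 1379 tied peaks would rank above the 114, and a class of peaks above 3100 would not be the strongest one. This was not tested, and the tied peaks and those above 3100 were not ranked against each other.

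**Figure D1:**
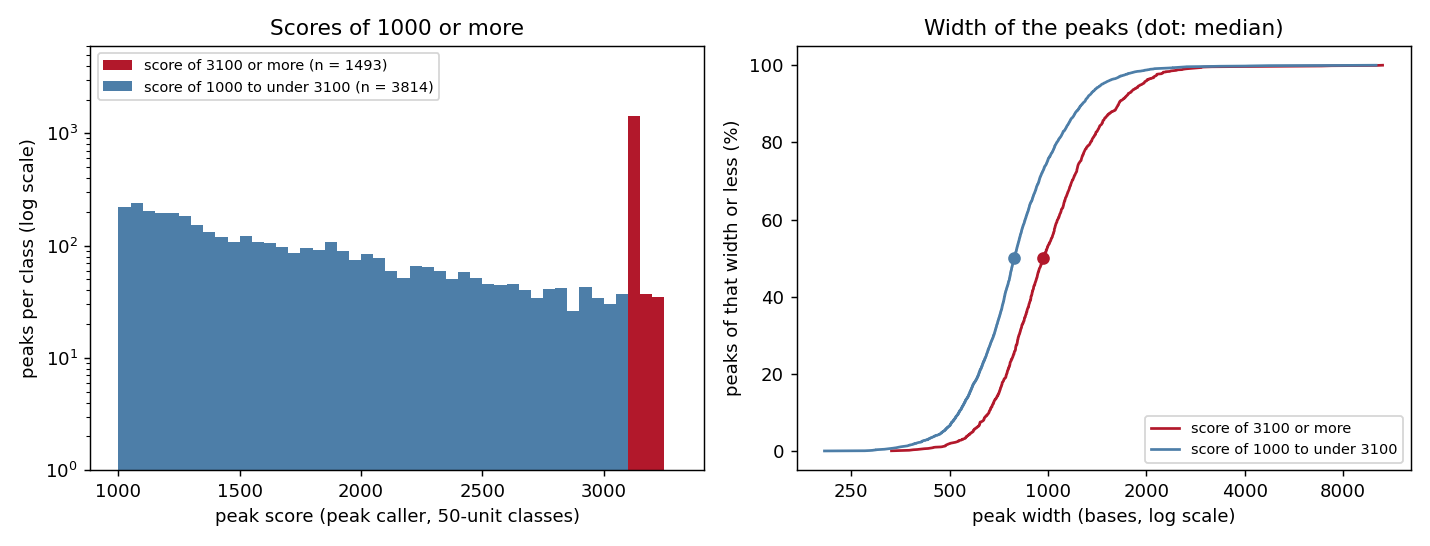
Left, number of autosomal peaks (log scale) in score classes of 50 units, with the 1493 ceiling peaks in red and the 3814 sub-ceiling peaks in blue; right, share of each class at or below a given width in bases (log scale), with dots at the medians. The class that starts at 3100 stands far above its neighbours, and the ceiling curve lies to the right, with a median of 969 bases against 788 bases for sub-ceiling peaks.

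Ceiling peaks were wide. Their median width was 969 bases (order-statistic 95% interval 944 to 995; quartiles 785 and 1253), against 788 bases (780 to 798; quartiles 649 and 995.75) in sub-ceiling peaks and 509 bases in all autosomal peaks. Together they covered 1.63 Mb, or 3.15% of the bases in autosomal peaks. Width and score come from the same caller and the same libraries, so the difference is a description and was not tested. This holds for every comparison between the classes that follows, and the intervals cover the counting of peaks only.

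Most ceiling peaks fell in the middle width classes. There were 28 under 500 bases (1.88%), 273 from 500 to under 750 (18.3%), 492 from 750 to under 1000 (33.0%), 497 from 1000 to under 1500 (33.3%), 142 from 1500 to under 2000 (9.51%), 55 from 2000 to under 4000 (3.68%) and 6 of 4000 or more (0.402%). In the sub-ceiling class 248 were under 500 bases (6.50%), 1373 had 500 to under 750 (36.0%) and 769 had 1000 to under 1500 (20.2%). Put together, 46.9% of ceiling peaks (exact 95% interval 44.3% to 49.5%) and 24.7% of sub-ceiling peaks (23.3% to 26.1%) were 1 kb or wider. Read the other way, the share of peaks scoring 1000 or more that reached the ceiling was 10.1% (6.85% to 14.3%) under 500 bases, 28.2% (26.1% to 30.4%) at 750 to under 1000 and 58.5% (47.9% to 68.6%) at 2000 to under 4000.

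Width differed within the ceiling class. Peaks at exactly 3100 had a median of 977 bases (956 to 1012). The 114 above 3100 had a median of 816 bases (778 to 905), an interval that lies below that of the tied peaks and holds the 788 bases of the sub-ceiling class. Of the tied peaks 48.3% (45.6% to 51.0%) were 1 kb or wider, against 29.8% (21.6% to 39.1%) of those above 3100.

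The widest ceiling peak ran for 10580 bases at chr10:74395071-74405650. It was followed by 10069 bases at chr16:3231475-3241543, 7387 bases at chr4:3006396-3013782, 6892 bases at chr10:58754945-58761836, 6031 bases at chr17:39979844-39985874 and 4275 bases at chr7:62986718-62990992. The peak on chromosome 4 was the first of its chromosome, and that on chromosome 16 began 0.109 Mb after the first. The next 4 were much narrower, at 3174 bases on chromosome 15 from 74495360, 2995 and 2944 bases on chromosome 4 from 149421393 and 140602374, and 2941 bases on chromosome 6 from 84523811. All 10 scored exactly 3100. Of the 6 widest, those on chromosomes 16, 4 and 17 had no peak under 1000 within 10 kb.

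At the narrow end, the ceiling was reached by peaks of 332 bases at chr3:87181174-87181505, 358 bases at chr10:99615399-99615756 and 376 bases at chr10:58805779-58806154. Peaks of 382 bases at chr1:132170335-132170716 and of 387 bases at chr3:125347316-125347702 completed the 5 narrowest, and all 5 scored exactly 3100.

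Every autosome held ceiling peaks, from 36 on chromosome 18 to 118 on chromosomes 1 and 11. Per Mb between the first and last peak, the mean was 0.621 ± 0.159 (SD over 19 autosomes). Chromosome 11 had the highest density at 0.993 per Mb, followed by chromosome 17 at 0.867 and chromosome 5 at 0.756. Chromosome 3 had the lowest at 0.377, followed by chromosome 13 at 0.393 and chromosome 18 at 0.411. The span between the extremes was 2.63-fold for ceiling peaks, 1.95-fold for sub-ceiling peaks and 2.39-fold for all autosomal peaks.

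Relative to the sub-ceiling class, no chromosome stood outside the counting error of the whole. Over all autosomes there were 39.1 ceiling peaks per 100 sub-ceiling peaks, which makes 28.1% (exact 95% interval 26.9% to 29.4%) of the 5307 peaks that scored 1000 or more. Chromosomes 10, 17 and 7 had the most, with 48.4, 46.8 and 45.8 per 100, and chromosomes 13, 18 and 3 the fewest, with 29.1, 29.5 and 30.4 per 100. The pooled share of 28.1% lay inside the interval of all 19 autosomes.

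**Figure D2:**
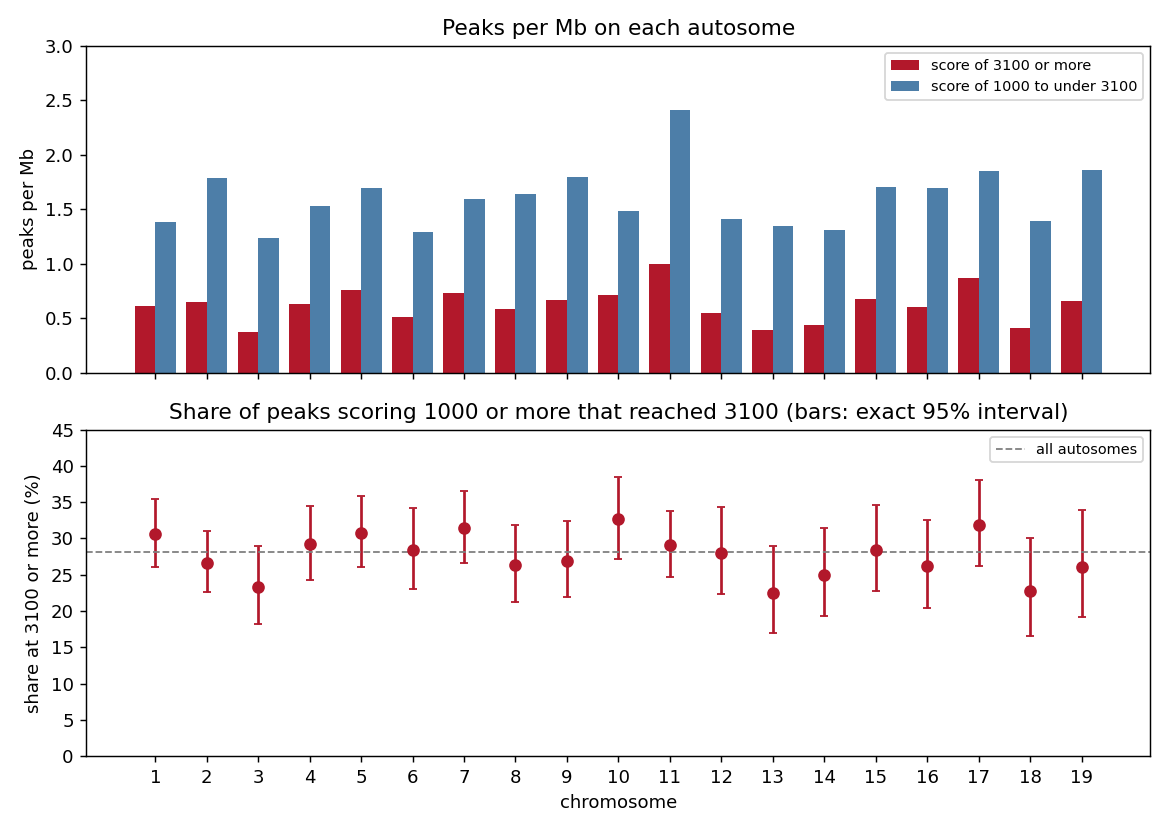
Top, ceiling peaks (red) and sub-ceiling peaks (blue) per Mb on each autosome; bottom, the share of peaks scoring 1000 or more that reached 3100, with exact 95% intervals and the share over all autosomes (28.1%) as a dashed line. Chromosome 11 has the tallest bar of both classes, and every interval crosses the dashed line.

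Along the chromosomes, ceiling peaks, like all autosomal peaks, were more frequent in the part far from the centromere. With each autosome cut into 10 equal parts from its first to its last peak, the parts from the first to the tenth held 112, 134, 118, 118, 128, 121, 183, 161, 176 and 242 ceiling peaks. The last part thus had 16.2% of ceiling peaks, 15.3% of sub-ceiling peaks and 17.7% of all autosomal peaks. The seventh part had the highest ceiling share of peaks scoring 1000 or more, 32.7% (28.9% to 36.8%), and the sixth the lowest, 25.3% (21.4% to 29.4%), with intervals that overlap narrowly.

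Counted in bins of 1 Mb, most ceiling peaks fell singly or in pairs, and some bins held more. Of 2387 autosomal bins, 903 held a ceiling peak (37.8%, exact 95% interval 35.9% to 39.8%), and 1572 held a sub-ceiling peak (65.9%, 63.9% to 67.8%), a class with more members, which by itself fills more bins. Among the bins, 557 held 1 ceiling peak, 203 held 2, 90 held 3, 32 held 4, 14 held 5, 5 held 6 and 2 held 7. The 143 bins with 3 or more held 512 of the 1475 binned ceiling peaks, or 34.7%. Of the 903 bins with a ceiling peak, 154 lacked a sub-ceiling peak, a smaller share than among all 2387 bins, of which 1572 held one. Sub-ceiling peaks only, from the class with more members, were held by 823 bins, and 661 held neither. Bins with a ceiling peak had a median of 53 peaks of any score, bins with sub-ceiling peaks only had 27, and bins with neither had 7. These counts include the ceiling and sub-ceiling peaks. A bin with more peaks is also more likely to hold a ceiling peak by number alone, so the order of these medians shows nothing particular to the class.

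The 2 bins with 7 ceiling peaks were chr2:32000001-33000000 and chr11:97000001-98000000. On chromosome 2 the peaks began at 32449363, 32484617, 32501852, 32557623, 32788381, 32796593 and 32937363, with widths from 766 to 2246 bases. The first of them scored 3114.76 and the other 6 exactly 3100. On chromosome 11 they began at 97170776, 97296839, 97332087, 97397412, 97655232, 97688979 and 97764708, with widths from 688 to 2152 bases, all at exactly 3100. The bin on chromosome 2 held 6 sub-ceiling peaks among 155 peaks in all, and the bin on chromosome 11 held 4 among 150.

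Bins with 6 ceiling peaks lay on chromosome 5 from 114000001 and from 117000001, chromosome 7 from 28000001, chromosome 9 from 43000001 and chromosome 17 from 29000001. In some of these bins the ceiling class outnumbered the class below it, but they were picked by their ceiling count, which favours this. The bin on chromosome 5 from 117000001 held 6 ceiling and 0 sub-ceiling peaks among 107 peaks, and the next bin, from 118000001, held 5 and 5. On chromosome 17 the 6 peaks began at 29215405, 29226790, 29277233, 29296648, 29525834 and 29989134, and those from 29226790 and 29296648 were 2699 and 2430 bases wide. This bin held 2 sub-ceiling peaks among 131 peaks.

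In megabases with many weaker peaks, the ceiling class was larger relative to the sub-ceiling class, but not relative to all peaks. With bins ranked by their peaks of score under 1000 and divided into 4 equal groups, ties kept in chromosome order, the groups had means of 4.30, 15.7, 37.0 and 87.1 such peaks per bin. From the sparsest to the densest group, ceiling peaks numbered 51, 169, 374 and 881, or 0.0854, 0.283, 0.628 and 1.48 per bin. Their share of peaks scoring 1000 or more was 18.7% (14.2% to 23.8%) in the sparsest group, 23.8% (20.7% to 27.1%) in the next, 26.1% (23.8% to 28.4%) in the third and 31.3% (29.6% to 33.0%) in the densest. The intervals of the sparsest and densest groups do not overlap. As a share of all peaks, however, the ceiling class was 1.795%, 1.68%, 1.59% and 1.61% from the sparsest to the densest group, close to the 1.62% of all autosomal peaks. Most peaks in these totals scored under 1000, and that count ranked the bins. The ranking by itself therefore tends to lower this share in the denser groups. Sub-ceiling peaks numbered 222, 542, 1060 and 1934, beside 2568, 9369, 22036 and 52018 peaks under 1000. They thus rose less steeply than the peaks under 1000. Because the bins were ranked by peaks under 1000, the steep rise of those peaks follows from the ranking. The reason for the rising share of peaks scoring 1000 or more was not tested.

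**Figure D3:**
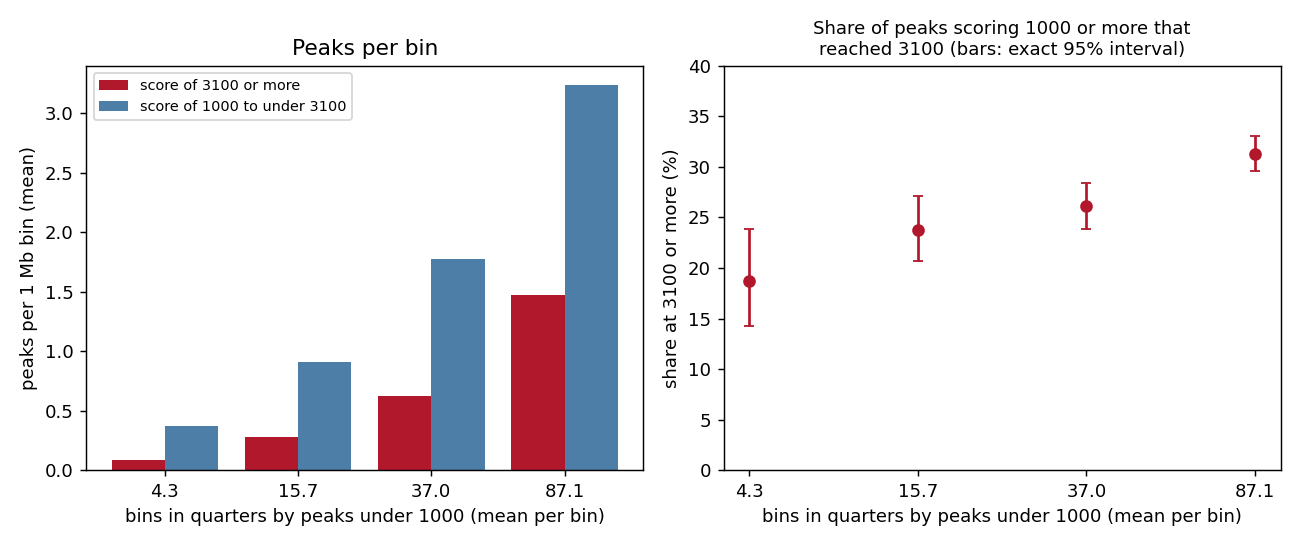
Autosomal 1 Mb bins in 4 groups by their number of peaks under 1000, with the mean per bin on the x axes. Left, mean ceiling peaks (red) and sub-ceiling peaks (blue) per bin; right, the share of peaks scoring 1000 or more that reached 3100, with exact 95% intervals, which runs from 18.7% to 31.3%. The ceiling share of all peaks, not drawn, was 1.795% in the sparsest and 1.61% in the densest group, and the ranking itself tends to lower it in dense bins.

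Ceiling peaks mostly stood apart from one another. The median distance from a ceiling peak to the next was 671019 bases (order-statistic 95% interval 595735 to 739514; quartiles 220558 and 1901786). The same distance in the sub-ceiling class was 291702 bases (276836 to 303466), but that class has more members, which by itself shortens the distance. Of 1474 distances between neighbouring ceiling peaks, 7 were under 1 kb, 27 were 1 to 10 kb, 186 were 10 to 100 kb, 667 were 100 kb to 1 Mb, 564 were 1 to 10 Mb and 23 were 10 Mb or more. Counted against the same partners, closeness could be compared: another ceiling peak lay within 100 kb of 26.7% of ceiling peaks (exact 95% interval 24.5% to 29.0%) and of 20.7% of sub-ceiling peaks (19.4% to 22.0%). Within 10 kb the shares were 4.55% of ceiling peaks (3.55% to 5.74%) and 3.64% of sub-ceiling peaks (3.07% to 4.29%), with overlapping intervals.

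Close pairs were few and never grew into chains. At a limit of 10 kb, 1425 ceiling peaks stood alone and 68 formed 34 pairs, with no group of 3. With so few close pairs, the absence of a group of 3 shows nothing particular to the class. Chains of sub-ceiling peaks were not counted. The closest pair lay 13 bases apart on chromosome 2, from 28921050 to 28921797 and from 28921811 to 28922449. Next came pairs 46 bases apart on chromosome 1 from 65156165, 49 bases apart on chromosome 6 from 91425040, 226 bases apart on chromosome 8 from 82443052 and 643 bases apart on chromosome 2 from 26408353. In the pair on chromosome 6 the first peak scored 3178.03; the other peaks that open these pairs scored exactly 3100. A sub-ceiling peak lay within 1 kb of 24 ceiling peaks and within 10 kb of 133 (8.91%). Another sub-ceiling peak lay within 10 kb of 285 sub-ceiling peaks (7.47%, 6.66% to 8.35%). Any other peak of 1000 or more lay within 100 kb of 56.9% of ceiling peaks (54.3% to 59.4%) and 51.5% of sub-ceiling peaks (49.9% to 53.1%).

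Long stretches of autosome held no ceiling peak. The longest covered 27.7 Mb on chromosome 12, from 43237334 to 70981966, and held 393 lower peaks, 25 of them of 1000 or more and the highest at 2920.01. The next covered 17.8 Mb on chromosome 14 from 105641849 to 123446153, with 436 lower peaks and 21 of 1000 or more. The third covered 16.9 Mb on chromosome 1 from 103690289 to 120637522, with 193 lower peaks, of which 3 reached 1000. These stretches had 14.2, 24.5 and 11.4 peaks per Mb, against 38.2 over all autosomes. Assembly gaps were not used here.

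Weaker peaks lay beside most ceiling peaks. A peak of score under 1000 lay within 10 kb of 1156 ceiling peaks, or 77.4% (exact 95% interval 75.2% to 79.5%), against 2647 sub-ceiling peaks, or 69.4% (67.9% to 70.9%). Within 1 kb the share was 33.6% of ceiling peaks (31.2% to 36.1%) and 26.0% of sub-ceiling peaks (24.6% to 27.4%). Within 50 kb it was 95.7% of ceiling peaks (94.6% to 96.7%) and 93.4% of sub-ceiling peaks (92.6% to 94.2%). Within the ceiling class, 77.2% of the tied peaks (74.8% to 79.3%) and 80.7% of those above 3100 (72.3% to 87.5%) had one within 10 kb, with overlapping intervals. Any other peak, whatever its score, was missing within 10 kb of 319 ceiling peaks (21.4%) and within 100 kb of 25 (1.67%), against 98 sub-ceiling peaks (2.57%) within 100 kb. Those 25 had a median width of 744 bases.

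Ceiling peaks had 2.16 weaker neighbours within 10 kb on average and a median of 2, against an average of 1.75 and a median of 1 for sub-ceiling peaks. None was found beside 337 ceiling peaks (22.6%), 1 beside 342, 2 beside 275, 3 beside 226, 4 beside 107, 5 beside 92, and 6 or more beside 114 (7.64%, 6.34% to 9.10%, against 4.54%, 3.90% to 5.25%, in the sub-ceiling class). The neighbours stood on both sides of 580 ceiling peaks (38.8%) and on a single side of 576 (38.6%). They were evenly divided, with 1638 on the side of lower coordinates and 1594 on the other. The 3232 pairs involved 3130 different weaker peaks.

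The ceiling peaks with the most weaker neighbours had 10 each, while the maximum in the sub-ceiling class, which has more members, was 15. Around the peak on chromosome 8 from 73881759 to 73883055, 6 lay before and 4 after, from 1821 to 9775 bases away, with scores from 50.41 to 101.01. Around the peak on chromosome 11 from 120230269 to 120232104, 6 lay before and 4 after, from 348 to 7765 bases away, with scores from 53.77 to 207.11. Around the peak on chromosome 16 from 18484637 to 18485731, 8 lay before and 2 after, from 550 to 9548 bases away, with scores from 50.99 to 402.64. A further 5 had 9 each, among them the peaks on chromosome 1 from 191673349 and on chromosome 2 from 172697759.

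In score and width the neighbours were close to other weak peaks of the list. All weaker peaks within 10 kb of ceiling peaks had a median score of 87.0 (84.6 to 89.4; quartiles 62.2 and 151) and a median width of 525 bases, against 85.1 (83.7 to 86.4) and 518 bases around sub-ceiling peaks. The 86924 autosomal peaks under 1000 had a median score of 83.4 and a median width of 499 bases. Of the neighbours of ceiling peaks, 58.1% scored under 100, against 59.2% around sub-ceiling peaks and 60.6% of autosomal peaks under 1000. The nearest weaker peak scored 85.5 at the median (80.9 to 89.8) beside ceiling peaks and 85.9 (83.7 to 88.9) beside sub-ceiling peaks, each median inside the other's interval. It lay closer to ceiling peaks, at a median of 1342 bases (1208 to 1598), than to sub-ceiling peaks, at 1855 bases (1690 to 1988), and within 100 bases of 120 ceiling peaks (8.04%) and 227 sub-ceiling peaks (5.95%).

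The frequency of weaker peaks fell with distance from the edge of a ceiling peak. It was 2.52 per 10 kb of flank in the first 500 bases, 1.46 from 500 bases to 1 kb, 1.14 from 1 to 2 kb, 1.04 from 2 to 5 kb and 0.914 from 5 to 10 kb. It was 0.850 from 10 to 20 kb, 0.793 from 20 to 50 kb, 0.775 from 50 to 100 kb and 0.684 from 100 to 500 kb, so the first 500 bases had 3.68 times the last value. Around sub-ceiling peaks it was 1.84 per 10 kb in the first 500 bases and 0.611 from 100 to 500 kb, a ratio of 3.02. Ceiling peaks thus had more weaker peaks around them at all 9 distances, 1.37 times as many in the first 500 bases and still 1.12 times as many from 100 to 500 kb.

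**Figure D4:**
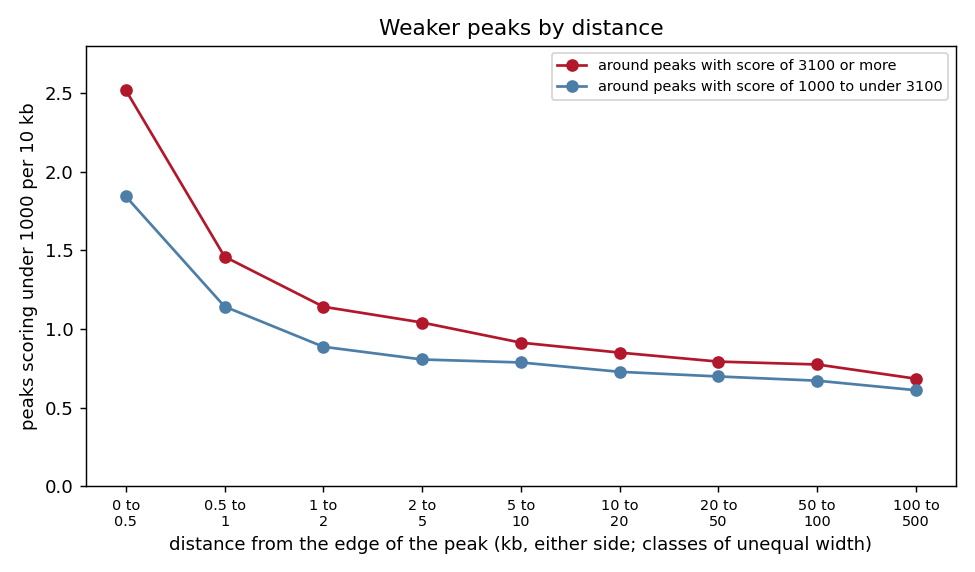
Peaks of score under 1000 per 10 kb of flank in 9 distance classes (kb from the peak edge, both sides, unequal class widths), around ceiling peaks (red) and sub-ceiling peaks (blue). Both curves fall with distance, to 0.684 around ceiling peaks and 0.611 around sub-ceiling peaks at 100 to 500 kb, and the red one is higher throughout.

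Width and the surroundings moved with the number of flanking peaks, so the classes were also set side by side within groups of each. Ceiling peaks had a median of 63 weaker peaks lying 10 to 500 kb away (60 to 65), sub-ceiling peaks 52 (51 to 54). Where at most 31 such peaks surrounded a peak, 42.2% of ceiling peaks (36.5% to 48.0%) and 41.1% of sub-ceiling peaks (38.1% to 44.1%) had a weaker peak within 10 kb. At 32 to 55 the share was 75.4% of ceiling peaks (70.5% to 79.9%) and 68.1% of sub-ceiling peaks (65.1% to 71.0%). At 56 to 90 it was 86.1% of ceiling peaks (82.4% to 89.4%) and 81.7% of sub-ceiling peaks (79.0% to 84.2%), and at 91 or more it was 95.02% of ceiling peaks (92.6% to 96.9%) and 91.7% of sub-ceiling peaks (89.7% to 93.5%). The ceiling share was higher in all 4 groups. The intervals overlapped in every one, but such overlap does not show that the shares are equal. In each group from 32 upward, the sub-ceiling share lay below the ceiling interval. At 31 or fewer it lay inside. The differences were not tested.

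Within groups of similar width the shares lay close together. Under 750 bases, 62.1% of ceiling peaks (56.4% to 67.6%) and 58.5% of sub-ceiling peaks (56.0% to 60.9%) had a weaker peak within 10 kb. At 750 to under 1000 bases the share was 76.8% of ceiling peaks (72.8% to 80.5%) and 72.4% of sub-ceiling peaks (69.8% to 74.8%). At 1000 to under 1500 bases it was 81.7% of ceiling peaks (78.0% to 85.0%) and 82.8% of sub-ceiling peaks (80.0% to 85.4%), and at 1500 bases or more 91.1% of ceiling peaks (86.3% to 94.7%) and 90.7% of sub-ceiling peaks (85.3% to 94.6%). The intervals overlapped in all 4 width groups, and at 1000 to under 1500 bases the ceiling share was the lower one. At 750 to under 1000 bases the sub-ceiling share lay just below the ceiling interval. The part of width and surroundings in the pooled difference was not tested.

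**Figure D5:**
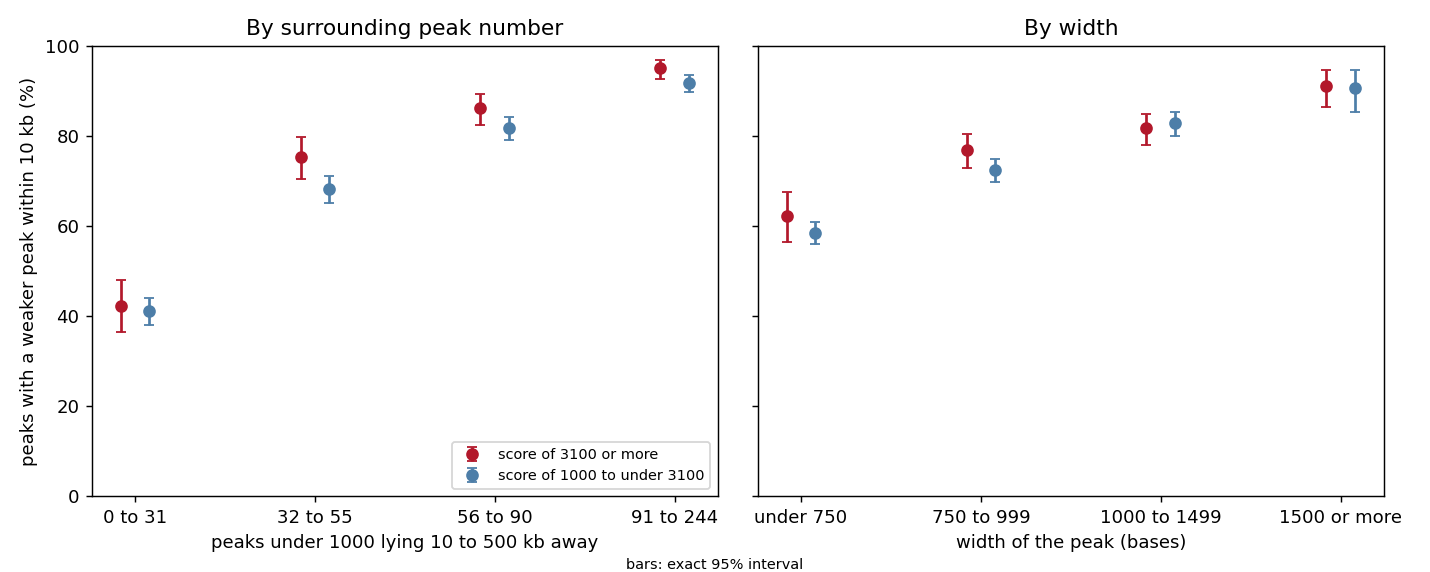
Share of ceiling peaks (red) and sub-ceiling peaks (blue) with a peak of score under 1000 within 10 kb, with exact 95% intervals, by the number of such peaks 10 to 500 kb away (left) and by peak width in bases (right). The share runs from 42.2% to 95.02% of ceiling peaks across surroundings and from 62.1% to 91.1% across widths. The intervals of the classes overlap in every group, which does not show that the shares are equal.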

How the data were processed

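ChIP-seq peaks of 1 p53 ChIP library against 1 input library were used as deposited; samples were grouped by title. CASAVA 1.8.2, MACS 1.4.1 and build mm9 come from the submitters' processing notes; for the aligner, read totals, duplicate handling and caller settings the entry is not given in the sources used here. Depth is therefore unknown. The score of each peak was deposited by the authors as their caller wrote it and grows with depth, so comparisons stay within the list. Starts, counted from 0 in the file, are printed counted from 1.

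Distances run from edge to edge. Bins of 1 Mb were kept where they lay wholly between a chromosome's first and last peak, and peaks were assigned by midpoint. Shares have exact Clopper-Pearson and medians order-statistic 95% intervals. These treat peaks as independent, which neighbours are not. Python 3.11.15, NumPy 2.4.6, pandas 2.3.3, SciPy 1.17.1 and Matplotlib 3.10.9 were used, and the distance functions were tested on simulated data. The members, classes and alternatives were chosen with earlier results of these data known. Named positions are the widest, narrowest, closest and most flanked ceiling peaks, the fullest bins, the longest empty stretches and the extreme chromosomes. No gene positions or sequences were used, because the gene table at hand is on another build.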

Additional observations from a re-analysis of the deposited data

Results flagged for a closer look

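Chromosome X, outside the autosomal set, held 13 peaks of score 3100 or more, 11 of them at exactly 3100, and Y held 0. That was 0.0798 per Mb of X, against 0.619 per Mb over the autosomes, and 32.5 per 100 of its 40 peaks of score 1000 to under 3100, against 39.1 on the autosomes. Of the 92924 peaks of the list, 92231 were autosomal, so peaks of any score were sparse on X too. The low density is therefore not particular to the highest scores, and their share of all X peaks was not computed. The 13 peaks on X had a median width of 805 bases, from 343 to 1637. They were singled out because data outside the comparisons held a signal above the limit of 3 that a count of 0 allows.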

How the results depend on the processing

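Of 63 alternatives run for 9 results, 3 of them added after seeing the data (a comparison class of 2000 to under 3100), 38 stayed inside the interval of the reported value, or within 1.5 times for the number of peaks, and 25 did not. In that comparison class the median width was 833 bases, nearer to the 969 of ceiling peaks than the 788 of all sub-ceiling peaks. A weaker peak lay within 10 kb of 71.0% of it, against 69.4% of all sub-ceiling peaks and 77.4% of ceiling peaks. Direction against the sub-ceiling class was read for width, flanking peaks, the nearest weaker score and another ceiling peak nearby, and not for the distance to the next or occupied bins, where class size alone sets it. In 36 of these 40 alternatives the difference kept its direction, and the 4 that did not all concern the score of the nearest weaker peak: 85.5 for ceiling against 83.6 for sub-ceiling peaks with that comparison class, 90.7 against 87.9 after merging, 86.2 against 85.9 at exactly 3100 and 86.7 against 85.4 within 50 kb. Direction was read from the values alone, also where the ceiling interval held the sub-ceiling value. Above 3100 only, this was so for the median width (778 to 905, against 788 bases). It was also so there for the share 1 kb or wider (21.6% to 39.1%, against 24.7%) and for another within 100 kb (0.213% to 6.19%, against 1.63%). With only the peaks above 3100, the number was 114, the median width 816 bases, the share 1 kb or wider 29.8%, the share with a weaker peak within 10 kb 80.7%, the nearest weaker score 80.3, the distance to the next 10168034 bases, the share with another within 100 kb 1.75%, the share of occupied bins 4.61% and the number per 100 sub-ceiling peaks 2.99. That number was 36.2 at exactly 3100, 41.6 at 3000 or more and 138 against peaks of 2000 to under 3100. Merging peaks up to 1 kb apart gave a median width of 1232 bases, 63.6% at 1 kb or wider, 69.9% with a weaker peak within 10 kb and a nearest weaker score of 90.7. A weaker peak lay within 5 kb of 64.0% and within 50 kb of 95.7%, and one of 100 to under 1000 within 10 kb of 52.5%. Another ceiling peak lay within 10 kb of 4.55% and within 500 kb of 64.0%. Bins of 500 kb and 2 Mb were occupied in 22.9% and 56.0%, and widths of at least 800 and 1500 bases were reached by 72.6% and 13.6%. Each of these alternatives changes what is counted; the cause was not tested further. No paired analysis was possible because the ChIP and the input are single libraries. Unknown depth limits any statement on weak peaks.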
